A study of Canis lupus familiaris with 12 samples.

Results

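The baseline transcriptome of the beagle hippocampus was described from the 3 hippocampal libraries of the sham-operated arm, out of 12 samples in the series. The members were chosen by their labels, and all 31158 gene models of the deposited table were ranked by their mean level over these 3 libraries. The series sequenced hippocampal mRNA and exosome miRNA from beagles that had been sham-operated or paced, and its stated purpose was to relate atrial fibrillation to cognitive impairment. Only the sham hippocampus was used, and no comparison with pacing was made. The group was 1 breed, the beagle, with the treatment given as a sham operation; age, sex, genotype and the part of the hippocampus taken are not stated in the labels. RNA was extracted with TRIzol, a phenol-based reagent, and 2 ug of total RNA went into each library, made with the KC-Digital kit, which keeps strand information and starts from messenger RNA. Whether the samples are from separate dogs is not given in the labels, so the spread below is that between samples and may in part be technical. With 1 group of 3 libraries there is nothing to test, and every difference between libraries is given as a description with no p-value.

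The hippocampus is the part of the forebrain that forms memories of events and places. Its principal neurons are glutamatergic: granule cells of the dentate gyrus excite CA3 pyramidal neurons, which excite CA1 pyramidal neurons. A minority of GABA-releasing interneurons restrain them, and axons from the septum and brainstem bring acetylcholine, noradrenaline and serotonin from cell bodies that lie elsewhere. Astrocytes, myelinating oligodendrocytes, microglia and blood vessels make up the rest, and a piece of dissected tissue can carry choroid plexus, ependyma or meninges from its borders.

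Read totals on genes were 49934871, 51789497 and 36573169 in sham libraries 1, 2 and 3, the order in which every set of 3 values is given below. Gene models with at least 1 read numbered 26956, 26954 and 25737. The unit is RPKM, in which reads are scaled by the length of a gene's exons and by the library's total. RPKM does not correct for differences in make-up between libraries, and its sum was 501115, 503309 and 477824. For a gene with 1 kb of exons, 1 read corresponded to 0.02, 0.0193 and 0.0273 RPKM. Models matched to a protein-coding gene in the RefSeq table took 84.6, 85.4 and 87% of the reads and models matched to a long non-coding RNA took 0.991, 1.15 and 1.06%. Errors written as ± are the SD over the 3 libraries (n = 3).

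Mean levels ran from under 0.1 to over 1000 RPKM, and a small number of genes held much of the total. A mean of at least 1000 RPKM was reached by 30 gene models, which held 34.8% of the summed RPKM but 12.9% of the reads. Between 100 and 1000 RPKM lay 628 models, with 30.5% of the RPKM and 30.4% of the reads. The class from 10 to 100 RPKM held 4679 models and the most reads, 42.7%. From 1 to 10 RPKM there were 8762 models, with 13.1% of the reads. Under 1 RPKM, 7198 models lay between 0.1 and 1 and 8473 lay above 0 and under 0.1, together with 1388 models that had no read in any library. In all, 14099 models reached 1 RPKM, of which 11694 carried a gene symbol, and 5337 reached 10 RPKM.

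The make-up of the classes differed with level. Of the 30 models at 1000 RPKM or more, 18 were encoded by the mitochondrial genome. Models matched to long non-coding RNAs made up 0.955% of the class from 100 to 1000 RPKM, 7.27% of that from 1 to 10, and 36.7% of that above 0 and under 0.1. Membership was least steady at the bottom. Of the 30 most abundant models, 25 were in their class in each of the 3 libraries. Between 0.1 and 1 RPKM this held for 4377 of 7198 models, and under 0.1 for 1785 of 8473. A model of the lowest class left it in any library where it had no read, so that count depends on depth as well as level. The plot of gene models by level shows near-equal numbers in the 3 libraries from 1 RPKM upwards, with more models without reads in the shallowest library, sham 3.

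**Figure D1:**
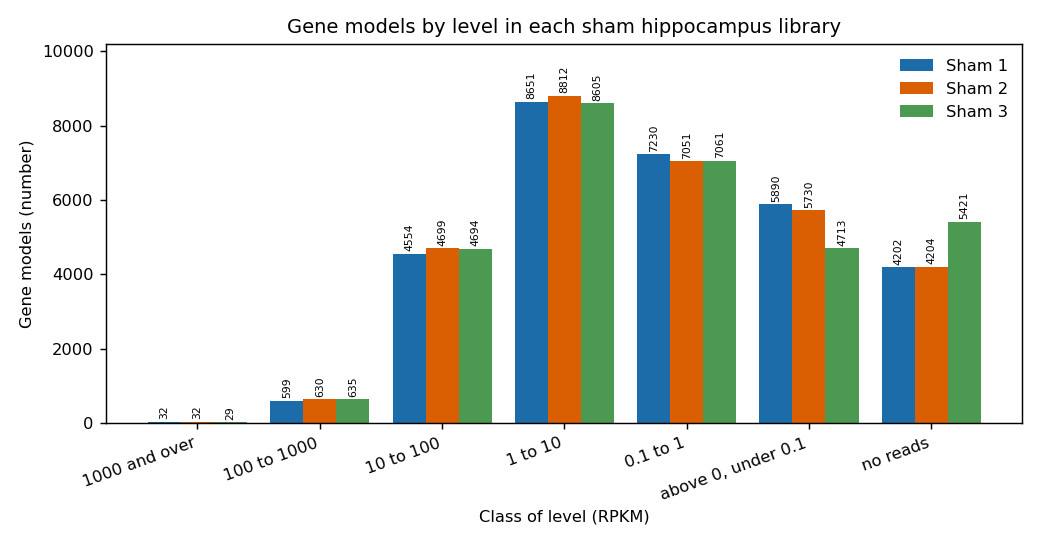
Number of gene models (vertical axis) in each class of RPKM (horizontal axis) in the 3 sham hippocampus libraries, 1 bar per library with its count above it. From 1 to 10 RPKM the bars read 8651, 8812 and 8605, while models without reads numbered 4202, 4204 and 5421.

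The most abundant nuclear transcript was CALM2, which encodes calmodulin, the calcium sensor that activates CaM kinase and calcineurin in neurons. It stood at 10275, 6635 and 8619.6 RPKM, a mean of 8509.8 ± 1823, and lies on chr10:49299698-49314533 in CanFam3.1. Next came SPARCL1, a secreted matrix protein of astrocytes, at 4461, 5484 and 4280.0 RPKM. CHGB, a core protein of the dense-core granules that store neuropeptides, followed at 5020.5, 1749 and 3556 RPKM. CHGB was lowest in sham 2, and its SD was close to the size of the lowest library. CLU and APOE, the apolipoproteins that carry lipid in brain, had 2466, 2903 and 2894 (CLU) and 1835, 2206 and 2023 (APOE) RPKM, within a narrow range in all 3 libraries.

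Other nuclear genes among the 25 highest were of a few kinds. Chaperones were represented by HSP90AA1 at 2629, 2565 and 2774 RPKM and HSP90AB1 at 872, 725 and 982 RPKM. Neuronal genes included ATP1B1, a subunit of the sodium pump, at 1607, 891 and 1575, SNAP25, the presynaptic fusion protein, at 940.2, 601 and 786, and CPE, which trims neuropeptides, at 849, 729 and 799 RPKM. APP, the amyloid precursor protein, had 745, 627 and 798 RPKM. Of glial genes, GFAP, the astrocyte intermediate filament, stood at 689, 1525 and 561 RPKM and was highest in sham 2. The cytosolic ribosome was represented by RPL36A, RPL37A and RPL26, with means of 1069 ± 212, 958 ± 272 and 767 ± 158 RPKM. Others were TCEAL4, BEX5, SRP14, YWHAE, NCL and PEBP1, with means from 799 to 2043 RPKM, together with the loci MIR8819 and MIR8858.

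Counts of some of these genes cannot be separated from those of a neighbour. MIR8819 overlaps the end of PEBP1 on the same strand, and the pair had the same order of libraries, with 964, 668 and 1000.2 RPKM (MIR8819) and 898, 620.2 and 910.2 RPKM (PEBP1). A model on the strand opposite to GFAP, LOC102155117, held 246, 569 and 205 RPKM, the same order of libraries as GFAP. MIR8858 had 237, 1819 and 150.1 RPKM over 1643, 13091 and 763 reads, and sham 2 stood far above the others. The kit selects messenger RNA, so a value at a microRNA locus is not a measure of the mature microRNA.

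The 13 protein-coding genes of the mitochondrial genome, which encode subunits of the respiratory chain and its ATP synthase, had means from 953 (ND3) to 41189.8 RPKM (ATP8). ATP8 and ATP6, subunits of the ATP synthase, led the whole table at 40066, 44307 and 39197 (ATP8) and 36027, 39064 and 32762 (ATP6) RPKM. These genes overlap, and how the reads in the overlap were counted is not stated. COX3, a subunit of cytochrome c oxidase, was far higher in sham 1, at 11650.4, 4576 and 3822 RPKM, whereas COX1 of the same complex was alike in the 3 libraries at 3422, 3223 and 3040.0. All 13 were lowest in sham 3 and 10 were highest in sham 1. Over all 14099 models at 1 RPKM or more, sham 1, 2 and 3 were the highest library for 25%, 40.7% and 34.3% and the lowest for 41.2%, 34.6% and 24.1%, and the counts of highest and lowest libraries below are to be read against these shares. Mitochondrial features as a whole took 8.5, 7.23 and 6.05% of reads, in the same order.

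The tissue label was checked against markers. SLC17A7, GAD1, GFAP, MBP and CSF1R were above 1 RPKM in each library, and TTR was too, but over a range of 2.46 to 449. Of 183 listed genes of cell types and neighbouring tissues, 174 were in the table and 130 of these had a mean of at least 1 RPKM. In bulk tissue, fewer cells of a type and less RNA per cell cannot be told apart, which holds for every cell type below. The plot of marker genes shows the pan-neuronal and astrocyte lists highest, with medians of 201 and 131 RPKM, and the choroid plexus, striatum, leukocyte, erythroid and organ lists with medians under 1.

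**Figure D2:**
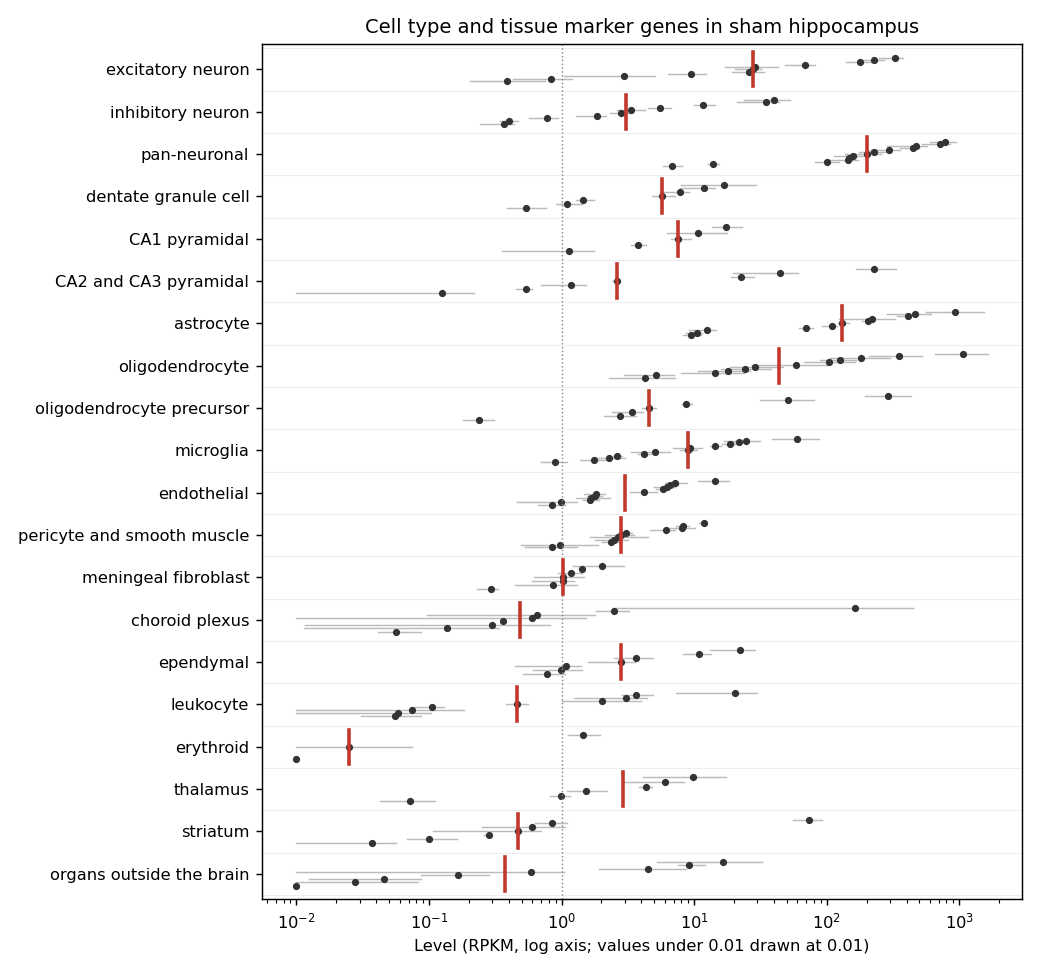
Levels of the marker genes of 20 cell types and tissues in sham hippocampus (horizontal log axis, RPKM; values under 0.01 drawn at 0.01). Each point is a gene's mean over 3 libraries, the grey line its lowest to highest library, the red bar the list's median and the dotted line 1 RPKM; the TTR point of the choroid plexus list has the longest line, from 2.46 to 449.

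Excitatory neuron markers reached at least 1 RPKM for 9 of the 11 genes in the table. SLC17A7, the vesicular glutamate transporter of forebrain excitatory neurons, stood at 77, 48.6 and 81.1 RPKM. SLC17A6, the transporter that prevails in thalamus and brainstem, stood at 0.211, 0.204 and 0.751, and the ratio of SLC17A7 to SLC17A6 was 364, 238 and 108. NRGN, a calmodulin-binding protein of dendritic spines, had 364, 248 and 376 RPKM. NEUROD6, a transcription factor of pyramidal neurons, had 271, 188 and 227. CAMK2A, the kinase central to synaptic potentiation, had 237, 162 and 139. TBR1, a factor better known from neocortical layers, was low, with a mean of 2.98 ± 1.99 RPKM. SLC17A7, NRGN and NEUROD6 were lowest in sham 2, and CAMK2A was lowest in sham 3.

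Marker lists of the hippocampal fields had modest medians, of 5.71 (dentate), 7.6 (CA1) and 2.6 RPKM (CA2 and CA3), though PCP4 was far higher. PROX1, the factor that specifies dentate granule cells, had 7.17, 5.16 and 4.82 RPKM. CALB1, a calcium buffer of granule cells and some other neurons, had 29.4, 12.9 and 7.97. C1QL3, a secreted synaptic organiser, had 8.84, 5.51 and 9.22 RPKM. CALB1 differed most among these, with sham 1 far above the other libraries. For CA1, MPPED1 and FIBCD1 had 23, 15.8 and 13.7 (MPPED1) and 17.6, 8.02 and 6.25 (FIBCD1) RPKM, also highest in sham 1. For CA2 and CA3, PCP4, a calmodulin regulator, reached 167, 177 and 336. RGS14, a regulator of G-protein signalling enriched in CA2, reached 28.3, 20.6 and 18.9. PCP4 was highest in sham 3, so the field markers did not share an order of libraries.

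Inhibitory neuron markers had a median of 3.08 RPKM, against 27.6 for the excitatory list. GAD1 and GAD2, the enzymes that make GABA, stood at 43.8, 23.7 and 52.8 (GAD1) and 39.2, 21 and 43.8 (GAD2) RPKM. Their ratio was steady at 1.15 ± 0.0487, while the ratio of SLC17A7 to GAD1 was 1.76, 2.05 and 1.54. LHX6, a factor of interneurons from the medial ganglionic eminence, had 5.47, 4.51 and 6.7. Of the 7 markers at 1 RPKM or more, 6 were lowest in sham 2 and 6 were highest in sham 3.

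General neuronal genes were abundant, all 13 above 1 RPKM and 12 above 10. After SNAP25 came NEFM, the medium neurofilament, at 775, 525 and 855 RPKM, SYT1, the calcium sensor of vesicle release, at 553, 287 and 572, and THY1, a neuronal surface protein, at 499.9, 356 and 492. Of the 13, 11 were lowest in sham 2. ENO2, the neuronal enolase, was the steadiest at 147, 141 and 151 RPKM.

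Astrocyte genes had a median of 131 RPKM, below that of the pan-neuronal list. S100B, a calcium-binding protein, had 287, 616 and 489.9 RPKM, and the glutamate transporters SLC1A3 and SLC1A2 had 340.3, 438 and 454 (SLC1A3) and 184, 227 and 199.8 (SLC1A2). GLUL, glutamine synthetase, which recycles glutamate taken up from synapses, had 125, 326 and 207. AQP4, the water channel of astrocyte endfeet, had 116, 119 and 92.6. All 11 astrocyte genes reached 1 RPKM, and 8 were highest in sham 2. GFAP, S100B and GLUL were spread most widely, and SLC1A2, ALDOC and AQP4 stayed within a narrow range.

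Oligodendrocyte genes were all 12 above 1 RPKM, with a median of 43.6. MOBP and MBP, proteins of compact myelin, had 314, 527 and 209 (MOBP) and 132, 302 and 106 (MBP) RPKM. CNP, a myelin enzyme, had 119.5, 167 and 89.8. ERMN, a cytoskeletal protein of myelinating cells, had 80.5, 164 and 67.4. All 12 were highest in sham 2. Precursor markers were lower: PDGFRA, the receptor that defines the precursors, had 5.14, 4.06 and 4.56 RPKM and GPR17, a marker of cells on the way to maturity, had 9.62, 8.5 and 8.06. BCAS1 and OLIG1, listed with the precursors but also made by mature cells, had 238, 432 and 193 (BCAS1) and 31.4, 80.7 and 41.9 (OLIG1) RPKM, again highest in sham 2. GPR17 and PDGFRA were highest in sham 1.

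Microglial markers had a median of 8.99 RPKM. CSF1R, the receptor on which microglia depend, stood at 7.88, 10.5 and 8.62 RPKM and P2RY12, a purine receptor of resting microglia, at 6.61, 5.28 and 3.34. The complement genes C1QB, C1QC and C1QA had 38.4, 87 and 52.2 (C1QB), 16.8, 31.2 and 26 (C1QC) and 6.95, 11.5 and 9.61 (C1QA) RPKM. Of the 12 markers at 1 RPKM or more, 9 were highest in sham 2. P2RY12 and CX3CR1, the fractalkine receptor, were highest in sham 1, CX3CR1 at 2.16, 1.7 and 1.37 RPKM.

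Vascular markers were low. Endothelial genes had a median of 3.01 RPKM, led by SLC2A1, the glucose transporter of the blood-brain barrier, at 14.5, 18.2 and 10.6, then FLT1, a VEGF receptor, at 6.06, 8.9 and 6.4. Pericyte and smooth muscle genes had a median of 2.82 RPKM, led by MYH11, smooth muscle myosin, at 10.9, 12.1 and 12.3, and RGS5, a pericyte marker, at 9.2, 8.27 and 7.27. Meningeal fibroblast genes had a median of 1.02 RPKM, with COL1A2, a collagen chain, at 1.85, 2.98 and 1.22.

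Tissues at the border of the hippocampus were unevenly represented. TTR, the thyroid hormone carrier that choroid plexus epithelium secretes, had 82, 15512 and 1046 reads, or 2.46, 449 and 42.9 RPKM. Of the 8 choroid plexus genes, 5 were highest in sham 2: TTR, CLIC6 at 0.0969, 1.78 and 0.101, FOLR1 at 0, 1.53 and 0.276, OTX2 at 0.0116, 0.814 and 0.0631 and KCNJ13 at 0.0115, 0.338 and 0.0628 RPKM. No read fell on FOLR1, the folate receptor, in sham 1. KL, also made by neurons, was instead highest in sham 1, at 3.25, 1.83 and 2.33, and SLC4A5, a bicarbonate transporter, was nearly level at 0.376, 0.367 and 0.347. The sum of the list was 6.25, 456 and 46.1 RPKM, nearly all of it TTR in sham 2 and sham 3. Ependymal cilia genes went another way: RSPH1 had 28.8, 13.2 and 24.8 RPKM and CCDC39 had 13.4, 8.29 and 10.8, both lowest in sham 2.

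Markers of neighbouring grey matter and of blood differed in level by list. Of the 7 striatal genes, PPP1R1B, the phosphatase inhibitor DARPP-32, which other forebrain neurons also make, was at 70.6, 92.8 and 55.6 RPKM, and the other 6 had means under 1. Of 6 thalamic genes, 4 reached 1 RPKM and the median was 2.92 RPKM. PRKCD, a protein kinase C, had 17.4, 7.9 and 4.09 RPKM. LEF1, a Wnt pathway factor that vessels also express, had 2.92, 8.35 and 6.71. Leukocyte genes summed to 13.3, 42.9 and 33.0 RPKM, most of it S100A9, a calprotectin subunit of neutrophils, at 7.24, 29.8 and 23.8. The lymphocyte genes CD3E, CD3D and CD79A had means from 0.055 (CD3E) to 0.0738 RPKM (CD79A). ALB, the plasma protein made by liver, was at 32.3, 5.25 and 12.4 RPKM, highest in sham 1, and LEP, the fat hormone leptin, had no read, which allows up to 0.00548 RPKM (3 reads over the 3 libraries).

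For transmitter systems, 201 of 210 listed genes were in the table, 114 had a mean of at least 1 RPKM and 87 lay under it. The plot of transmitter genes shows the glutamate synthesis and transport, AMPA, GABA-B, granin and monoamine breakdown lists at high medians. The genes that make catecholamines, serotonin and acetylcholine lie at low ones. Between them lie the NMDA, kainate and delta, and metabotropic glutamate receptor lists, with medians of 4.30, 5.70 and 3.21 RPKM.

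**Figure D3:**
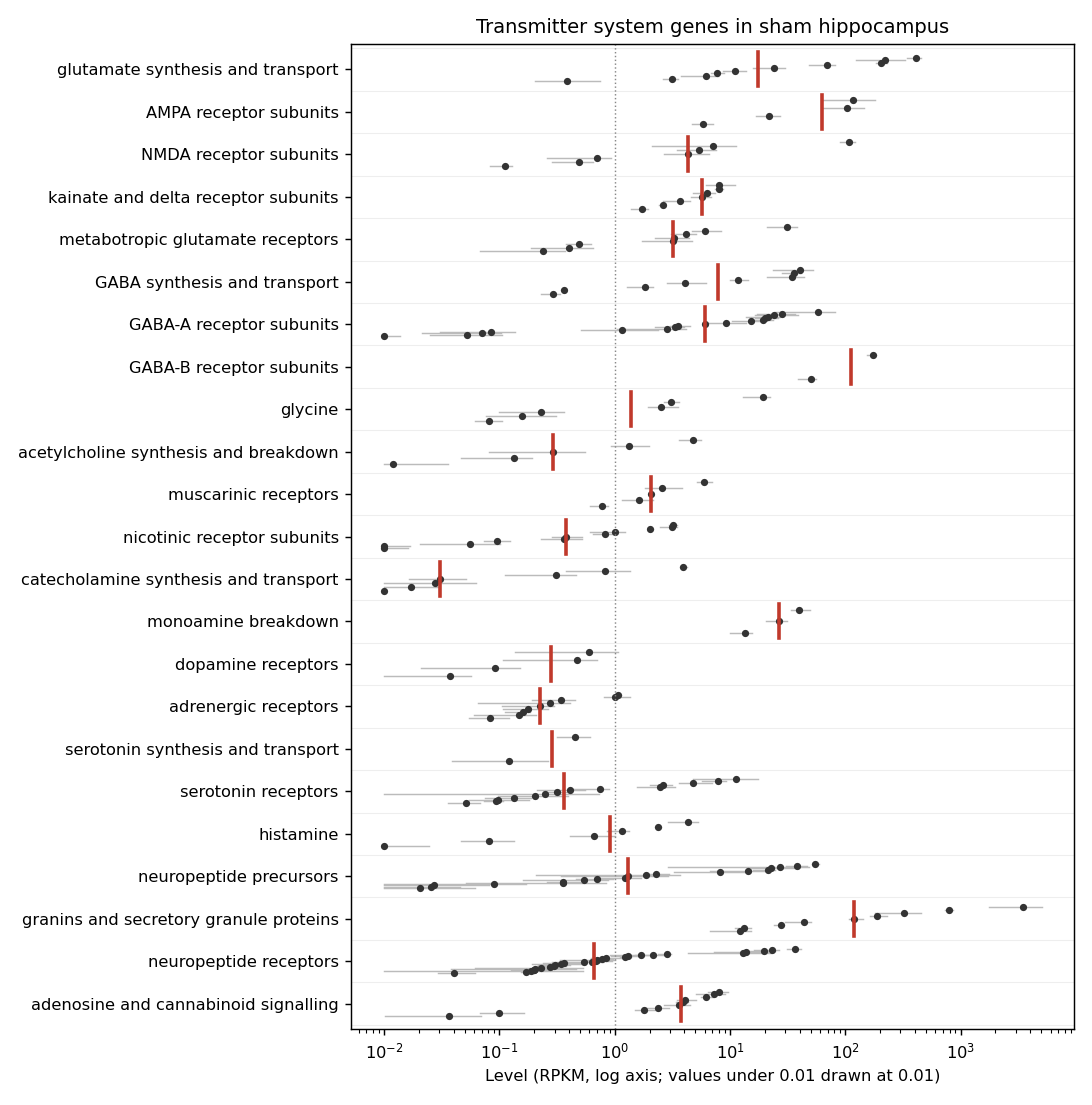
Levels of genes of 23 transmitter lists in sham hippocampus (horizontal log axis, RPKM; values under 0.01 drawn at 0.01), drawn as in the plot of marker genes: point, mean of 3 libraries; grey line, lowest to highest library; red bar, list median; dotted line, 1 RPKM. The AMPA list has a median of 62.1 RPKM and the catecholamine synthesis list a median of 0.0303.

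The genes of fast excitation were among the highest of the transmitter genes. Of the AMPA receptor subunits, which carry the fast synaptic current, GRIA1 had 181, 64 and 105 RPKM. GRIA2, the subunit that blocks calcium entry, had 145, 63 and 99.2. GRIA3 had 27, 16.7 and 21.1. GRIA4 was the lowest at 5.72, 4.72 and 7.06 RPKM. All 4 were lowest in sham 2, and the ratio of GRIA1 to GRIA2 stayed at 1.25, 1.01 and 1.05. Of the NMDA receptor subunits, GRIN1, the obligatory subunit, had 121, 90.1 and 109 RPKM. The partner subunits that set its kinetics were far lower, GRIN2B at 11.2, 2.1 and 8 and GRIN2A at 6.58, 2.69 and 3.62. GRIN2B exceeded GRIN2A in sham 1 and sham 3 but not in sham 2.

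Kainate and delta receptor subunits lay between 1.71 and 8.04 RPKM in mean, all 7 above 1. Of the metabotropic receptors, GRM5, which couples to calcium release at the edge of the synapse, was highest at 38, 21.1 and 34.6 RPKM. GRM3, found in astrocytes and neurons, had 5.17, 8.28 and 4.63, and GRM2 and GRM4 had means under 1. Glutamate is cleared by SLC1A3 and SLC1A2 and, in neurons, by SLC1A1, at 30.1, 15.7 and 26.9 RPKM. SLC17A8, the transporter of a small class of interneurons and serotonin axons, had 6.73, 3.78 and 7.93 RPKM.

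For GABA, the transporter that loads vesicles, SLC32A1, had 2.16, 1.27 and 2.07 RPKM, far below the GAD enzymes, and ABAT, the enzyme that breaks GABA down, had 28.1, 37.6 and 41.6. The ionotropic GABA-A receptor was represented by 13 of 17 subunits at 1 RPKM or more. GABRA2, a subunit of synaptic receptors, was the highest at 81.3, 24.3 and 67.7 RPKM. GABRG1 had 16.5, 17 and 39.1. GABRA5, enriched in hippocampal pyramidal neurons, had 13.7, 6.16 and 7.99. GABRD, of extrasynaptic receptors, had 6.2, 5.93 and 6.06. Of the 13, 10 were lowest in sham 2, while GABRG1 was highest in sham 3. The metabotropic GABA-B receptor pair was more even: GABBR1 had 182, 155 and 183 RPKM. GABBR2 had 55.5, 39 and 55, and their ratio was 3.53 ± 0.376. Of glycine genes, GLRB, the receptor subunit bound by gephyrin, had 22, 13 and 22.3 RPKM.

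Genes that make the monoamines and acetylcholine were low, with list medians of 0.0303 RPKM (catecholamine), 0.286 (serotonin) and 0.292 (acetylcholine, with its breakdown enzymes). Receptor lists had medians of 0.282 (dopamine), 0.226 (adrenergic), 0.362 (serotonin), 0.377 (nicotinic) and 2.07 (muscarinic). TH, the first enzyme of catecholamine synthesis, had no read in any library, which allows a level of up to 0.0126 RPKM over the 3 libraries (3 reads, counting error only). DBH, which makes noradrenaline, had 0.0512, 0.0165 and 0.0233 RPKM. TPH2, the neuronal enzyme of serotonin synthesis, had 0.611, 0.432 and 0.315, and CHAT, which makes acetylcholine, had 4 reads in sham 1 and 0 in sham 2 and sham 3. SLC18A2, the vesicular monoamine transporter, was higher at 4.25, 3.66 and 3.76 RPKM. Breakdown enzymes were well expressed, MAOA at 49.7, 34.7 and 34 and MAOB at 31.1, 27.7 and 20.7 RPKM.

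Among receptors of these systems, CHRM1, the muscarinic receptor of pyramidal neurons, was the highest cholinergic receptor at 6.96, 5.19 and 5.62 RPKM, and 4 of 5 muscarinic genes reached 1 RPKM. CHRNA7 and CHRNB2, subunits of the main brain nicotinic receptors, had 2.95, 3.23 and 3.45 (CHRNA7) and 3.37, 2.48 and 3.45 (CHRNB2) RPKM. None of the 4 dopamine receptor genes in the table reached a mean of 1 RPKM. The highest was DRD5, at 0.137, 1.06 and 0.585, with DRD1 at 0.108, 0.699 and 0.609. Of 9 adrenergic receptors, ADRA2A and ADRA1A reached 1 RPKM, with means of 1.07 ± 0.0553 and 1.01 ± 0.307. HTR1A, the inhibitory serotonin receptor of pyramidal neurons, had 17.5, 4.72 and 11.3 RPKM and HTR2C had 8.46, 5.66 and 9.23. Of 14 serotonin receptors 5 reached 1 RPKM, and all 5 were lowest in sham 2. Histamine receptors HRH2 and HRH1 had means of 2.37 ± 0.152 and 1.15 ± 0.252 RPKM.

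Neuropeptide precursors had a median of 1.30 RPKM, with 11 of 19 genes at 1 RPKM or more and 6 at 10 or more, while the 9 granule proteins had a median of 119 and were all above 10. NPY and SST, peptides of interneurons, had 58.9, 52 and 50.9 (NPY) and 37.3, 30.6 and 46.5 (SST) RPKM, and VIP, of interneurons that inhibit other interneurons, had 24.3, 15.6 and 23.5. CCK, of basket cells and pyramidal neurons, had 15.1, 17.5 and 35.9. Opioid precursors differed in opposite ways: PENK, which gives enkephalins, had 6.75, 22.3 and 14 RPKM, highest in sham 2, and PDYN, which gives dynorphins, had 7.85, 3.29 and 13.4, lowest in sham 2. NTS, neurotensin, had 2.92, 47.9 and 30.4 and was low in sham 1 alone. Granule proteins besides CHGB and CPE included SCG2 at 331, 181 and 451 and SCG3 at 169, 228 and 165 RPKM.

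Of 28 peptide receptors, 10 reached 1 RPKM. ADCYAP1R1, the PACAP receptor, was the highest at 37.4, 31.3 and 41 RPKM, followed by CCKBR, the brain cholecystokinin receptor, at 26.5, 25.9 and 16.2, and OPRD1, the delta opioid receptor, at 22.1, 12.6 and 24.5. SSTR2, a somatostatin receptor, had 21.4, 7.28 and 12.2 RPKM. NPY2R, the presynaptic NPY receptor, had 22.7, 4.27 and 11.8, and both were lowest in sham 2. Of lipid and purine signalling genes, MGLL, which degrades an endocannabinoid, had 6.47, 9.65 and 7.85. CNR1, the cannabinoid receptor of axon terminals, had 7.77, 5.06 and 9.09. ADORA1, the inhibitory adenosine receptor, had 3.42, 4.33 and 3.89 RPKM.

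To describe how the libraries differed, the fold range of a gene was taken as its highest over its lowest library after adding 0.1 RPKM, for the 14099 models with a mean of at least 1 RPKM. The median fold range was 1.35, 3524 models stayed within 1.2-fold, and 1799 models (12.8%) reached 2-fold. The count was 912 without sham 1, 567 without sham 2 and 1225 without sham 3. A range over fewer libraries cannot be wider, so a fall was fixed in advance, apart from models that newly passed the filter. Only the sizes of the falls differ by library. The same holds for the counts of list members with a library left out below. Among the 1799, sham 2 stood apart from the other libraries in 618, sham 1 in 354 and sham 3 in 169, where apart means that the gap to the nearest library was at least 2/3 of the range on the log scale. As a share of all 14099 models, sham 2 was apart as the high library for 364 (2.58%) and as the low library for 254 (1.8%). Sham 1 was the high library for 114 (0.809%) and the low library for 240 (1.7%). Sham 3 was the high library for 76 (0.539%) and the low library for 93 (0.66%). No library stood apart in the other 658 (4.67%).

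Counting error was small beside these differences. The median SD of log2 values was 0.23 over all 14099 models, against a median counting SD of 0.05. For the 2-fold models the medians were 0.68 and 0.08, at a median of 1239 reads over the 3 libraries, and 75 of them had fewer than 100 reads. The share past 2-fold was 15.6% from 1 to 10 RPKM, 7.86% from 10 to 100, 9.55% from 100 to 1000 and 23.3% (7 of 30 models) at 1000 or more. The plot of fold range against level shows TTR far above all other genes of its level.

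**Figure D4:**
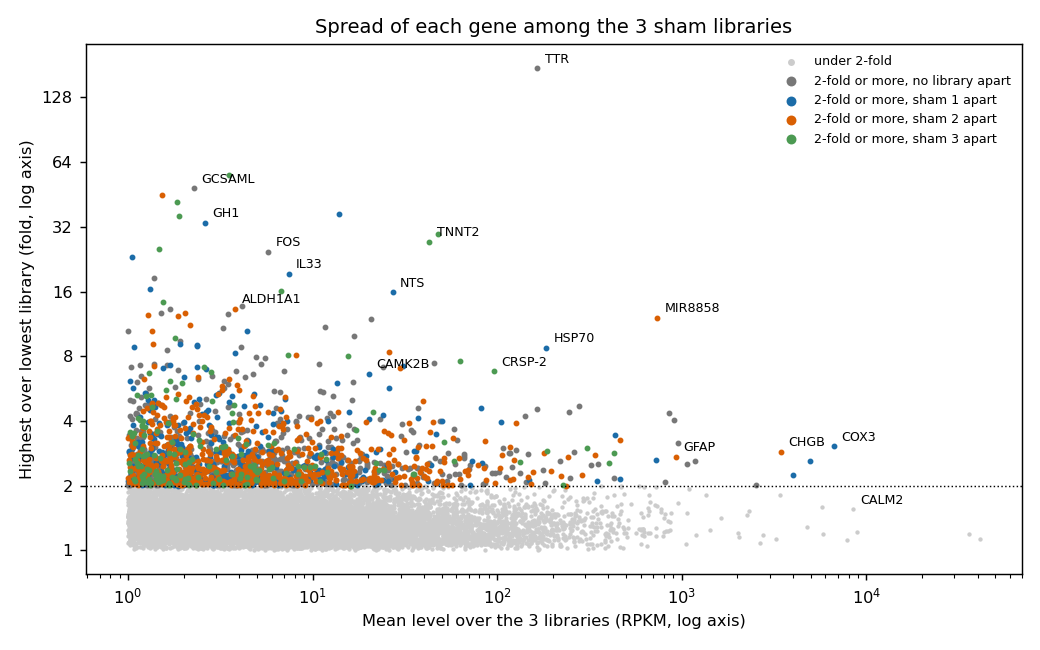
Fold range (highest over lowest library after adding 0.1 RPKM; vertical log axis) against mean level (RPKM, horizontal log axis) for 14099 gene models in 3 sham libraries. Points under 2-fold (dotted line) are light grey, the others are coloured by the library that stood apart; TTR is the highest point, at 175.

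TTR, on chr7:57940354-57947084, had the widest range of all, 175-fold after adding 0.1 RPKM. It was 10.5-fold without sham 1 and 16.8-fold without sham 2, so that each of the 3 libraries was far from the others. From the reads, the ratio of sham 2 to sham 1 was 182, with an exact 95% interval of 147 to 229 that covers counting error only. Other genes with wide ranges had the same highest library. IGF2, a growth factor that choroid plexus and leptomeninges are known to make, had 0.233, 3.4 and 0.413 RPKM. SLC13A4, a sulfate transporter, had 0.0982, 3.55 and 0.483. ALDH1A1, which makes retinoic acid, had 0.661, 10.04 and 0.693. MGP, a matrix protein, had 0.369, 3.26 and 0.503. All 4 were highest in sham 2, as were 5 of the 8 choroid plexus genes, TTR among them, while KL was lowest there. The part of that tissue in the spread was not tested.

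Other genes for which sham 2 stood apart high were PCP4L1, a homologue of PCP4, at 9.17, 64.9 and 14.8 RPKM, and IP6K3, an inositol phosphate kinase, at 1.3, 8.14 and 2.3. The genes of widest range for which sham 2 stood apart low included 2 secreted peptides. CARTPT, the CART peptide, had 1.71, 0.206 and 3.66 RPKM over 88, 11 and 138 reads. CALCB, a calcitonin gene-related peptide, had 2.25, 0.266 and 3.98. S100A5, a calcium-binding protein, had 14.8, 1.74 and 7.89. KCNG1, a modifying potassium channel subunit, had 3.5, 0.873 and 5.29 RPKM. TMEM215 and SLC9A4 had 1.23, 0.108 and 2.5 (TMEM215) and 6.7, 1.12 and 4.11 (SLC9A4) RPKM. CFAP43, of motile cilia, had 2.9, 0.461 and 2.22, in the same order as the ependymal gene RSPH1.

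Genes for which sham 1 stood apart low included NTS, HSP70, ZFP36, IL33 and TCIM. HSP70, the inducible chaperone, had 38.3, 178 and 336 RPKM over 4570, 22023 and 29364 reads; it belongs to a family with near-identical copies, so its counts are uncertain. ZFP36, which destabilises cytokine mRNA, had 0.716, 6.62 and 4.07. IL33, a nuclear alarmin made by oligodendrocytes and astrocytes, had 0.709, 5.96 and 15.5. TCIM, a small regulator of transcription, had 7.4, 30.9 and 53.9 RPKM. These 4 and NTS were each lowest in sham 1, and HSP70, IL33 and TCIM were highest in sham 3. GH1, growth hormone, had 0.0746, 2.01 and 5.74 RPKM, on 3, 84 and 169 reads. Sham 1 stood apart high for ITGA2, an integrin, at 8.96, 1.83 and 1.95 RPKM, MCTP2, a calcium-binding membrane protein, at 13, 4.18 and 3.27, ADA, adenosine deaminase, at 4.65, 1.32 and 0.867, and CXCL10, an interferon-induced chemokine, at 3.1, 1.04 and 0.736.

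Sham 3 stood apart in fewer genes. TNNT2, cardiac troponin T, had 43, 82.8 and 2.94 RPKM over 3230, 6454 and 162 reads, and SCN4B, a sodium channel subunit, had 18.5, 24.9 and 3.03. Both were low in sham 3 alone. Of other heart muscle genes, MYH7 had 7.53, 12.1 and 7.74 RPKM and MYH6 1.92, 8.69 and 2.91, both lowest in sham 1. MYL7, at a low level of 1.04, 0.725 and 0, was lowest in sham 3. High in sham 3 were CRSP-2 and CRSP-3, peptides related to calcitonin, at 43.1, 31.5 and 215 (CRSP-2) and 19.2, 22.5 and 146 (CRSP-3) RPKM; these are close paralogs on chr21, and their counts are uncertain. ARG1, arginase, had 14.2, 9.09 and 40.2. ADCYAP1, the PACAP peptide, had 0.686, 0.344 and 2.87. FGF10, a growth factor, had 0.7, 0.844 and 2.78 RPKM. GABRQ, a GABA-A subunit, had 0.513, 0.576 and 2.38 and GHSR, the ghrelin receptor, had 0.554, 0.556 and 2.52.

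No library stood apart for GCSAML, at 0.826, 0.0249 and 5.95 RPKM over 64, 2 and 338 reads, FOS, at 0.425, 12.8 and 4.01, SKAP1, at 0.313, 3.78 and 1.67, LCNL1, at 0.525, 6.68 and 2.64, or STC2, a secreted glycoprotein, at 0.726, 0.117 and 2.17. For these the 3 libraries were spread along the range. Several microRNA loci also had wide ranges, on very few reads: MIRLET7B had 6, 18 and 0 reads, MIR219-1 had 11, 7 and 0 and MIR135A-2 had 0, 3 and 5. They are not described further.

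The 10 steadiest genes at 10 RPKM or more included parts of the proteasome and of the secretory route. The share of such genes among all genes was not taken, and other proteasome genes ranged more widely, such as PSMC5 at 280, 450 and 360 RPKM. ATG14, which starts autophagosomes, had 16.9, 16.9 and 16.8 RPKM and GTF2B, a general transcription factor, had 22.1, 22 and 22.1. Of the 10 steadiest, PSMC3, PSMC4 and POMP belong to the proteasome or its assembly, at 167, 166 and 166 (PSMC3), 51, 50.9 and 51.4 (PSMC4) and 11.3, 11.2 and 11.2 (POMP) RPKM. ARCN1, of the COPI coat, SSR3, of the translocon, and GOLGB1, of the Golgi, serve the secretory route, with means of 34.6 ± 0.125, 44.3 ± 0.285 and 67.1 ± 0.432 RPKM. FBXL16 and SUPT6H completed the set, with means of 85.7 ± 0.213 and 57.9 ± 0.387. For ATG14 the exact 95% interval of the read ratio, highest over lowest library, was 0.954 to 1.06. Differences this small lie within counting error. None of the 12 commonly used reference genes reached a 2-fold range, against 12.8% of all models. With 12 genes this is near that share and is not read as steadiness of the set. YWHAZ had 388, 222 and 387 RPKM and RPL13A had 213, 348 and 245, in opposite orders.

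Lists of genes differed in how many members passed 2-fold and in which library. In 25 of the 35 lists with at least 5 members at 1 RPKM or more, the share past 2-fold was above the 12.8% of all models. In the smallest lists 1 gene is enough for this, as with dentate granule cell (1 of 6) and metabotropic glutamate receptor (1 of 5) genes. Some genes are also in more than 1 list, so the count of 25 is no measure of how widely lists vary. With a library left out, the share of all models was taken anew and was lower. Against that lower share, 14 lists lay above it without sham 2, 20 without sham 1 and 23 without sham 3. The plot of list medians orders the lists by sham 2: glial, immediate early and glucocorticoid lists lie to its high side, and neuronal and ependymal lists to its low side. Receptor lists lie to the low side too, apart from the adenosine and cannabinoid list, at 0.22.

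**Figure D5:**
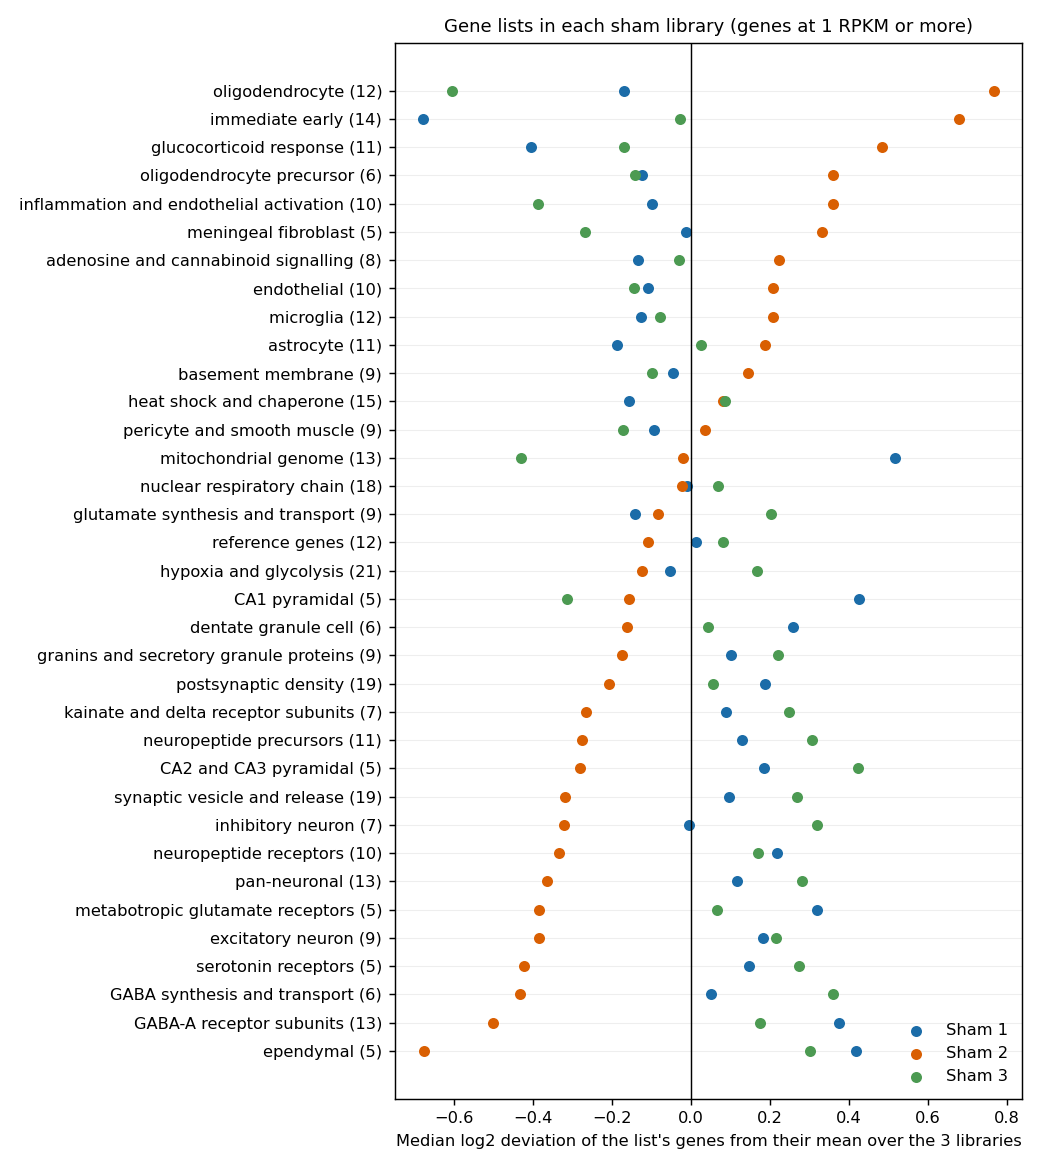
Median log2 deviation of each list's genes from their own mean over the 3 sham libraries (horizontal axis), with 1 point per library, for 35 lists; the number of genes at 1 RPKM or more is in brackets. Lists are ordered by sham 2, from oligodendrocyte at 0.77 to ependymal at -0.68; all 14099 models had medians of -0.05, 0.02 and 0.03.

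The oligodendrocyte list differed between libraries nearly as a whole. Its 12 genes had median deviations of -0.17, 0.77 and -0.61 on the log2 scale, and 11 of 12 were lowest in sham 3. A 2-fold range was reached by 11 of the 12, against 12.8% of all models. The count was 0 without sham 2 and 7 without sham 3. OPALIN, a membrane protein of mature oligodendrocytes, had 47.4, 100.5 and 27.3 RPKM. SOX10, the lineage factor, had 7.9, 23.8 and 11.1. MAL, a raft protein of myelin, had 3.23, 7.23 and 2.3. UGT8, which makes myelin galactolipid, had 20.9, 47 and 18.6. CNP alone stayed under 2-fold. The astrocyte list deviated less, by -0.19, 0.19 and 0.03, and the microglial list by -0.13, 0.21 and -0.08.

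The general, excitatory and inhibitory neuron lists had their lowest medians in sham 2. The pan-neuronal list had median deviations of 0.12, -0.36 and 0.28. None of its 13 genes reached 2-fold, against 12.8% of all models, which in 13 genes is near that share. The excitatory list had 0.18, -0.39 and 0.22, and the inhibitory list 0.00, -0.32 and 0.32. GABA-A receptor subunits had 6 of 13 past 2-fold, or 46.2% against 12.8% of all models (4 without sham 1, 2 without sham 2 and 4 without sham 3). GABRA2, GABRB1 and GABRQ had the widest ranges of these, GABRB1 at 3.27, 1.05 and 4.17 RPKM. Of synaptic vesicle genes, 16 of 19 were highest in sham 3 and 16 were lowest in sham 2. SYN2, a synapsin, had 44.7, 22.9 and 57.7 RPKM. SV2B, a vesicle glycoprotein, had 26.5, 17.1 and 43.2. BSN, of the active zone, had 12.2, 5.56 and 12.8. Of postsynaptic density genes, 13 of 19 were highest in sham 1 and 13 were lowest in sham 2, among them DLGAP1, a scaffold protein, at 34.6, 13.5 and 29, and NLGN1, a neuroligin, at 14.1, 6.57 and 10.8 RPKM. CAMK2B went the other way, at 5.08, 34.2 and 20.9, counted on a short model on an unplaced sequence.

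Immediate early genes, which neurons and glia switch on within minutes of a stimulus, were lowest in sham 1 for 11 of 14 and highest in sham 2 for 12 of 14. FOS, a subunit of the AP-1 factor, had 0.425, 12.8 and 4.01 RPKM, on 45, 1405 and 311 reads. JUN, its partner, had 88.6, 188 and 170.0. EGR1, a zinc finger factor, had 1.82, 7.78 and 2.48. ATF3, a stress-induced factor, had 1.12, 7.16 and 2.22 RPKM. EGR3, another zinc finger factor, was highest in sham 1, at 3.58, 1.17 and 1.08. A 2-fold range was reached by 11 of 14 (78.6%, against 12.8% of all models), which became 4 without sham 1 and 3 without sham 2. The median deviations were -0.68, 0.68 and -0.03.

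The glucocorticoid response list, genes that the stress hormone receptor is known to induce, was highest in sham 2 for all 11 genes at 1 RPKM or more. PDK4, a kinase that restrains glucose oxidation, had 15.3, 59.9 and 24 RPKM. SGK1, a kinase, had 17.3, 42.3 and 18. FKBP5, a receptor co-chaperone, had 58.5, 108 and 97.1. TSC22D3 had 10.7, 22.7 and 13.9. Median deviations were -0.40, 0.48 and -0.17. Past 2-fold were 4 of 11 genes, or 36.4% against 12.8% of all models (2 without sham 1 and 1 without sham 2). Several of these genes are also made by oligodendrocytes and astrocytes, whose lists were highest in the same library. Whether the orders of these lists depend on each other was not tested.

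Of the chaperones besides HSP70, BAG3 had 7.29, 28.1 and 12.1 RPKM. CRYAB, the small heat shock protein that oligodendrocytes also make, had 63, 174 and 79.4. DNAJB1 had 5.58, 10.5 and 13.1. These were the 3 of 15 listed genes past 2-fold (2 without sham 1, 1 without sham 2 and 2 without sham 3). The share was 20%, against 12.8% of all models. Of inflammation genes, CCL2, a monocyte chemokine, had 1.34, 10.5 and 3.86 RPKM and SOCS3, a feedback inhibitor of cytokine signalling, had 0.414, 2.34 and 1.09. IL1B and IL6 were lower, at 0.0631, 1.6 and 0.527 (IL1B) and 0, 1.22 and 0.173 (IL6), with no IL6 read in sham 1. All 4 were lowest in sham 1 and highest in sham 2, in the order of the leukocyte sum (13.3, 42.9 and 33.0 RPKM), whose part was not tested. The 10 inflammation genes at 1 RPKM or more did not share that order as a list, with median deviations of -0.10, 0.36 and -0.39. Of hypoxia and glycolysis genes, ADM, adrenomedullin, had 0.382, 3.4 and 1.08 RPKM and HK2, a hexokinase, had 0.814, 2.11 and 2.56. These were the 2 of 21 listed genes past 2-fold (1 without sham 1 and 1 without sham 2). That share, 9.52%, is near the 12.8% of all models.

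Nuclear respiratory chain and ribosomal protein genes mostly stayed under 2-fold, a range that 12.8% of all models reached. Of 76 ribosomal protein genes, 1 reached it. None of the 18 nuclear genes of the respiratory chain reached 2-fold, with COX5B widest at 128, 229 and 215 RPKM. Of these 18 genes, 17 had a mean of at least 10 RPKM. The share of all models past 2-fold was 7.86% in the class from 10 RPKM and 9.55% in that from 100 RPKM. With 18 genes, none past 2-fold is near those shares and is not read as steadiness of the set. Of the 13 mitochondrial genes, 6 reached 2-fold (0 without sham 1 and 2 without sham 3). ND3, ND1 and ND4L, subunits of complex I, had 1519, 859.9 and 481 (ND3), 1842, 1005 and 709.8 (ND1) and 8209.6, 3421 and 3166 (ND4L) RPKM, all highest in sham 1. The 76 cytosolic ribosomal protein genes, a group chosen after their values were seen, were highest in sham 2 for 69 and in sham 3 for 7, with median deviations of -0.25, 0.27 and -0.01. Short genes as a group leaned the same way by less: models with exons of at most 1605 bases had median deviations of -0.08, 0.06 and 0.02.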

How the data were processed

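Hippocampal mRNA of 3 samples from sham-operated beagles was analysed from the table the authors deposited. The deposited values are RPKM, scaled by summed exon length and library total, per the file headers and the values. RPKM multiplied by the length column gave whole reads for 100% of values (within 0.01 read), so read totals are known. The tools were featureCounts, STAR 2.5.3a and Trimmomatic 0.36, per the submitters' processing notes. The strand setting, annotation release and treatment of duplicates are not stated in the labels. Without the strand setting, reads of overlapping or antisense models cannot be told apart. Coordinates are as deposited, with the sequence names of CanFam3.1. Gene type came from RefSeq (UU_Cfam_GSD_1.0), which held 25961 of the gene names. No gene, promoter or protein sequence was used here.

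Groups came from the labels. Genes were ranked by mean RPKM; 54 lists of 552 entries covered cell types, transmitters and processes. The members and lists were chosen with earlier results of these data known. The fold range was the highest over the lowest library after adding 0.1 RPKM, for models with a mean of at least 1 RPKM, and 2-fold was the limit used. Log2 deviations are log2(RPKM + 0.1) minus its mean over the libraries, which understates differences of low genes. Ratios of reads carry exact 95% intervals, and 0 reads were set at a floor of 3 reads; both cover counting error only. Computing used Python 3.11.15, numpy 2.4.6, pandas 2.3.3 and scipy 1.17.1, and the fold-range step was tested on simulated data. Named were the 25 most abundant nuclear genes with a symbol, the 13 mitochondrial genes, up to 4 highest members of each cell type and transmitter list with those lacking reads, 3 of the widest range in each process list, the 25 widest ranges overall and 8 for each library apart high or low, and the 10 steadiest at 10 RPKM or more. Other list members named beside them were chosen after their values were seen. Some microRNA loci that the rule took, on very few reads, are left out. A few further genes named by this rule are not reported here. Alternatives changed the scaling, pseudocount, filter, fold limit, mean or median, and left out each library. The pacing and exosome samples were not analysed here.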

Additional observations from a re-analysis of the deposited data

How the results depend on the processing

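No paired analysis was possible because the sham hippocampus is 1 group and no result comes from a test. Counts by class depended on the unit: on a TPM-like scale, where values were 2.00, 1.99 and 2.09 times the RPKM in sham 1, 2 and 3, 82 models reached 1000, 1327 reached 100 and 8075 reached 10 at the same fixed limits. The 1799 models past 2-fold became 1000 with a pseudocount of 1 RPKM, 5291 without the low-value filter, 716 with a filter at 5 RPKM, 4756 at a limit of 1.5-fold and 483 at 3-fold, and lay between 567 and 1225 with a library left out. The 25 lists with a larger share past the limit than all models became 15 with the filter at 5 RPKM, 34 without a filter, 32 at 1.5-fold and 16 at 3-fold, and lay between 14 and 23 with a library left out. The share of all models was taken anew in each setting, and in small lists 1 gene past the limit can be enough. For a chosen part of the lists, the median difference of sham 2 from the other libraries kept its sign in 164 of 165 list and setting pairs. A change of the fold limit does not enter this difference, so the sign in those pairs was fixed in advance. The exception was the mitochondrial genome list, where sham 2 minus the other libraries was -0.03 with all libraries and between -0.54 and 0.26 with a library left out, the highest without sham 1. Median-of-ratios scaling moved whole libraries by -0.04, 0.03 and 0.02 on the log2 scale. Depth limits the genes under 0.1 RPKM, and 3 libraries limit every statement on spread.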

Other observations

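Genes under the limits used above also gave values. SLC6A12, SLC4A5 and HCRTR2, all under 1 RPKM, were steady, with means of 0.359 ± 0.0188, 0.363 ± 0.0149 and 0.637 ± 0.0264 RPKM. GABRD, the delta subunit of the GABA-A receptor, and CHRM2, a muscarinic receptor, were among the steadiest transmitter genes above 1 RPKM, at 6.20, 5.93 and 6.06 RPKM and at 2.09, 2.08 and 2.03 RPKM. They stood beside GABRA2 and CHRM4, members of the same families, which had 81.3, 24.3 and 67.7 RPKM and 3.80, 2.12 and 1.82 RPKM. Members of 1 receptor family thus differed in how far the libraries were apart.

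POMC, the precursor of melanocortins and endorphin, and GRP, gastrin-releasing peptide, were lowest in sham 1 and highest in sham 3, at 0.159, 0.612 and 0.867 RPKM and at 0.051, 0.172 and 0.835 RPKM. GH1 had the same order of libraries. These genes were chosen after their values were seen, and no explanation was tested.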
